A study of Sus scrofa with 10 samples.

Results

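Mitochondrial ribosomal proteins are the nuclear-encoded proteins of the ribosome that works inside mitochondria. Their genes were taken as all gene identifiers whose symbol in the per-library tables began with MRPL or MRPS followed by a digit. This gave 68 of 35670 identifiers, 42 with MRPL symbols and 26 with MRPS symbols. These sets are called large and small subunit here by symbol alone, and the place of each protein in the ribosome was not checked. All 68 passed the filter on low counts and entered the tests. Levels were measured by RNA-seq of nuclear RNA from sorted cardiomyocytes of minipig (Sus scrofa) hearts, the heart muscle cells that contract. In 3 libraries (numbers 8 to 10) the animals had received deoxycorticosterone acetate (DOCA) together with JK07, an ERBB4 agonist. In 2 libraries (numbers 6 and 7) they had received DOCA, a mineralocorticoid, and in 5 control libraries (numbers 1 to 5) phosphate-buffered saline. The labels give the genotype of all 3 groups as WT and do not tell whether each library stands for its own animal. The p-values therefore rest on library-to-library spread alone, part of which may be technical. Heart chamber, doses, times and ages are not given in the sources used here.

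The mitochondrial ribosome translates the few proteins encoded in mitochondrial DNA, all of them subunits of the respiratory chain and ATP synthase, on which the beating heart muscle cell depends for ATP. Its RNA is transcribed inside the mitochondrion, whereas all of its proteins are encoded in the nucleus, made in the cytosol and imported. The small subunit binds the mRNA and decodes it, and the large subunit joins the amino acids. Inherited variants of several of these genes in humans, MRPL3, MRPL44, MRPS14 and MRPS22 among them, cause mitochondrial disease that can include cardiomyopathy.

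Depth was uneven between the groups. In each library 2 ribosomal RNA scaffolds held 77.6% to 90.8% of the counts. Outside these scaffolds and the mitochondrial genome, the DOCA plus JK07 libraries had 9.03 to 12.9 M counts (M stands for 1000000). The DOCA libraries had 3.30 and 6.87 M, and the control libraries 8.67 to 13.9 M. Mitochondrially encoded transcripts held 4.40% to 8.26% of counts outside the scaffolds in DOCA plus JK07 libraries, 0.488% and 2.58% in DOCA libraries, and 3.69% to 5.57% in control libraries. Of 8 cardiomyocyte markers, 6 were named in the files, and their summed level in CPM (counts per 1000000, scaled between libraries by TMM) was 4632 to 7454 with DOCA plus JK07, 3010 to 5145 with DOCA and 3725 to 4471 in controls. The 5 fibroblast markers summed to 270 to 728 CPM with DOCA plus JK07, 320 to 1191 with DOCA and 274 to 1170 in controls, and these fibroblast sums overlapped between all 3 groups. Cardiomyocyte sums were higher in every DOCA plus JK07 library than in every control, while those of DOCA overlapped with both. The single markers did not all follow their sum. RYR2 (1099 to 1424 CPM, against 426 to 970 CPM), ACTN2 and MYBPC3 were higher in every DOCA plus JK07 library than in every control. TNNT2 and MYH7 overlapped between DOCA plus JK07 and control. MYH6 was below all controls (2301 to 2740 CPM) in libraries 8 and 9, at 2132 and 2080 CPM, and above them in library 10. Endothelial markers summed to 83.7 to 136 CPM with DOCA plus JK07, 84.8 to 145 with DOCA and 91.5 to 210 in controls, and macrophage and smooth muscle sums overlapped in the same way. The adipocyte marker ADIPOQ was listed at 0 in every library. In bulk libraries such as these, fewer cells of a type and less RNA per cell cannot be told apart.

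In control cardiomyocytes the levels of the mitoribosomal genes per length were near the middle of those of named genes. Mean TPM (transcripts per 1000000, as deposited) ran between 0.153 and 4.18 over the large subunit, with a median of 1.56, and between 0.541 and 4.71 over the small subunit, with a median of 1.65. The median of all named genes tested was 1.77 TPM. The highest member was MRPS26, a small-subunit protein found in mitochondrial but not bacterial ribosomes, at 4.71 ± 0.659 TPM (SD, n = 5). MRPL12, the stalk protein that contacts the elongation factors, came next at 4.18 ± 0.272 TPM, level with MRPL46 of the central protuberance at 4.17 ± 0.808 TPM. These 3 did not differ beyond their spread. MRPL33 had 3.54 ± 1.16 TPM, MRPS27, a pentatricopeptide repeat protein of the small subunit, 3.26 ± 0.551 TPM, and MRPS6 3.21 ± 1.14 TPM. At the low end stood MRPL36 at 0.153 ± 0.230 TPM, MRPL22, which lines the exit tunnel, at 0.172 ± 0.162 TPM, and MRPL50 at 0.270 ± 0.168 TPM, each of them listed at 0 in at least 1 control. The lowest small-subunit members were MRPS23, MRPS28 and MRPS33. TPM here counts ribosomal RNA in its total, of which the ribosomal RNA scaffolds held 87.38% to 90.05% in controls. A value therefore compares genes within these libraries only.

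**Figure D1:**
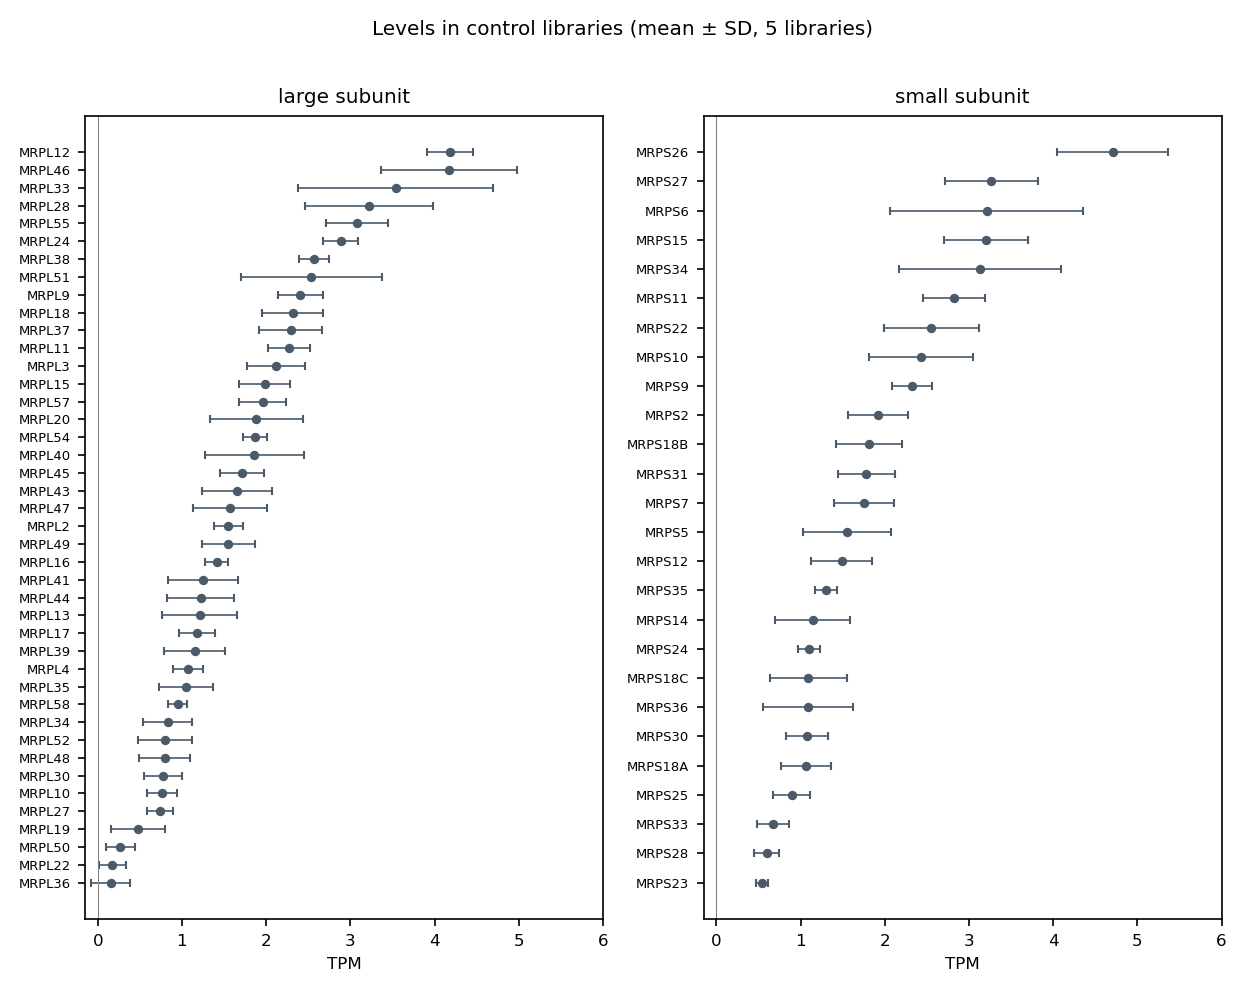
Mean TPM (x axis) of each large-subunit gene (left) and small-subunit gene (right) in the 5 control libraries; bars are SD. In the large subunit the leading members overlap in their error bars. In the small subunit the bar of MRPS26 lies above that of MRPS27, the next in order, and levels fall off gradually from there.

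In DOCA cardiomyocytes 15 of the 68 genes were lower than in controls and 3 were higher at an adjusted p under 0.05 (edgeR's quasi-likelihood F test, Benjamini-Hochberg over 17251 genes). Over all genes tested, 19.7% were lower and 5.73% higher. In the large subunit 7 of 42 (16.7%) were lower and 1 higher, with a median log2 fold change of -0.66, against -0.63 over all genes. In the small subunit 8 of 26 (30.8%) were lower and 2 higher, with a median of -1.21. The other 50 members did not pass in either direction. Both DOCA libraries lay below all 5 controls in 33 members (48.5%), against 27.6% of all genes, and above them in 5 (7.35%), against 10.2%. Both DOCA libraries lay below all controls in 42.9% of the large and 57.7% of the small subunit. In this test the large subunit's share of calls and its median stood close to those of all genes, while its share without overlap was above theirs. These medians include genes listed at 0 in both DOCA libraries, which are taken up below. The small subunit's median differed from that of all genes by -0.58 on the log2 scale. The difference was -0.46 without library 6 and -0.06 without library 7. With every library thinned to equal depth, 6 large-subunit and 7 small-subunit members were lower, against 19.6% of all genes. With quality weights per library (limma voom) none of the 68 passed in either direction, against 0.545% of all genes lower and 0.388% higher. With the ribosomal RNA scaffolds and the mitochondrial genome left out of the fit, 7 large-subunit and 7 small-subunit members were lower, against 19.1% of all genes. The medians were then -0.59 and -1.18, against -0.58 over all genes. Beyond this, the part of the low mitochondrial RNA in the DOCA libraries was not tested.

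The 15 lower genes fell into 2 kinds. In 11 of them both DOCA libraries were listed at 0, and in 4 (MRPS22, MRPS10, MRPS15 and MRPL9) they were above 0. The per-library tables list next to no gene under a coverage of about 1, so a value of 0 marks a gene under that minimum. A fold against 0 is not read as a size here. With every 0 set to the count at that minimum, an alternative chosen after seeing the data, none of the 11 passed and the 4 others did. Under that setting 11 other members passed as lower, MRPL18, MRPL54 and MRPS9 among them, so that 15 were lower in all, against 15.7% of all genes. The median log2 fold change was then -0.30 in the large and -0.60 in the small subunit, against 0.00 over all genes. The closeness of the large subunit's median to that of all genes thus depended on how zeros were handled.

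MRPS22, a small-subunit protein found in mitochondrial but not bacterial ribosomes, was the most abundant member by CPM in controls (chr13:79981796-80232773, plus strand, Sscrofa11.1). It had 10.4, 7.63 and 8.16 CPM in DOCA plus JK07 libraries, 2.53 and 3.38 CPM in DOCA libraries, and 9.49, 12.5, 9.97, 10.5 and 6.95 CPM in controls. The DOCA libraries lay below all 8 others, and the other groups overlapped. The coverage minimum for this gene was 2.54 CPM in library 6 and 3.32 CPM in library 7, so both DOCA values sat at about that minimum. A deeper fall could not have been listed. MRPS22 fell in DOCA against controls (log2 fold change -1.74, SE 0.27, adjusted p = 0.00135) and was higher in DOCA plus JK07 than in DOCA (1.57, SE 0.29, adjusted p = 0.00388). Its annotated span of 250978 bp overlaps COPB2 on the other strand, and the strand used in counting is not given in the sources used here. With counts rebuilt from coverage it did not pass in either comparison (-1.41, adjusted p = 0.418, and 1.22, adjusted p = 0.555).

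MRPS10, a protein of the small-subunit head (chr7:37318346-37329167, minus strand), had 1.77, 1.51 and 1.77 CPM with DOCA plus JK07, 0.589 and 0.736 CPM with DOCA, and 2.50, 2.76, 1.74, 2.70 and 1.66 CPM in controls. Both DOCA libraries were under the lowest value of the other groups. The coverage minimum was 0.488 CPM in library 6 and 0.638 CPM in library 7, not far under the DOCA values. MRPS10 fell in DOCA (log2 fold change -1.78, SE 0.36, adjusted p = 0.00622), and it was higher in DOCA plus JK07 than in DOCA (1.34, SE 0.37, adjusted p = 0.0369), a call lost when any of 7 of the 10 libraries was left out. MRPL9, a large-subunit protein (chr4:97448169-97463131, plus strand, overlapping OAZ3 on the other strand), had 2.98, 2.86 and 3.27 CPM with DOCA plus JK07, 1.64 and 1.37 CPM with DOCA, and 2.89, 2.95, 3.46, 2.70 and 2.42 CPM in controls. It fell in DOCA (log2 fold change -0.94, SE 0.24, adjusted p = 0.0208; 0.0517 without library 7) and was higher in DOCA plus JK07 than in DOCA (1.01, SE 0.26, adjusted p = 0.0251); the second call was lost with 5 of the 10 libraries left out in turn. With upper quartile scaling MRPL9 did not pass in either comparison (-0.70, adjusted p = 0.0615, and 0.77, adjusted p = 0.0706).

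MRPS15, which binds ribosomal RNA in the body of the small subunit, had 1.43, 1.81 and 2.28 CPM with DOCA plus JK07, 0.998 and 0.803 CPM with DOCA, and 2.22, 1.61, 2.18, 2.20 and 1.52 CPM in controls. Again the DOCA libraries lay below all others. It fell in DOCA (log2 fold change -1.11, SE 0.35, adjusted p = 0.0452), a call that 9 of the 10 left-out libraries ended. Against DOCA, the DOCA plus JK07 difference did not pass (1.03, SE 0.37, adjusted p = 0.0897).

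**Figure D2:**
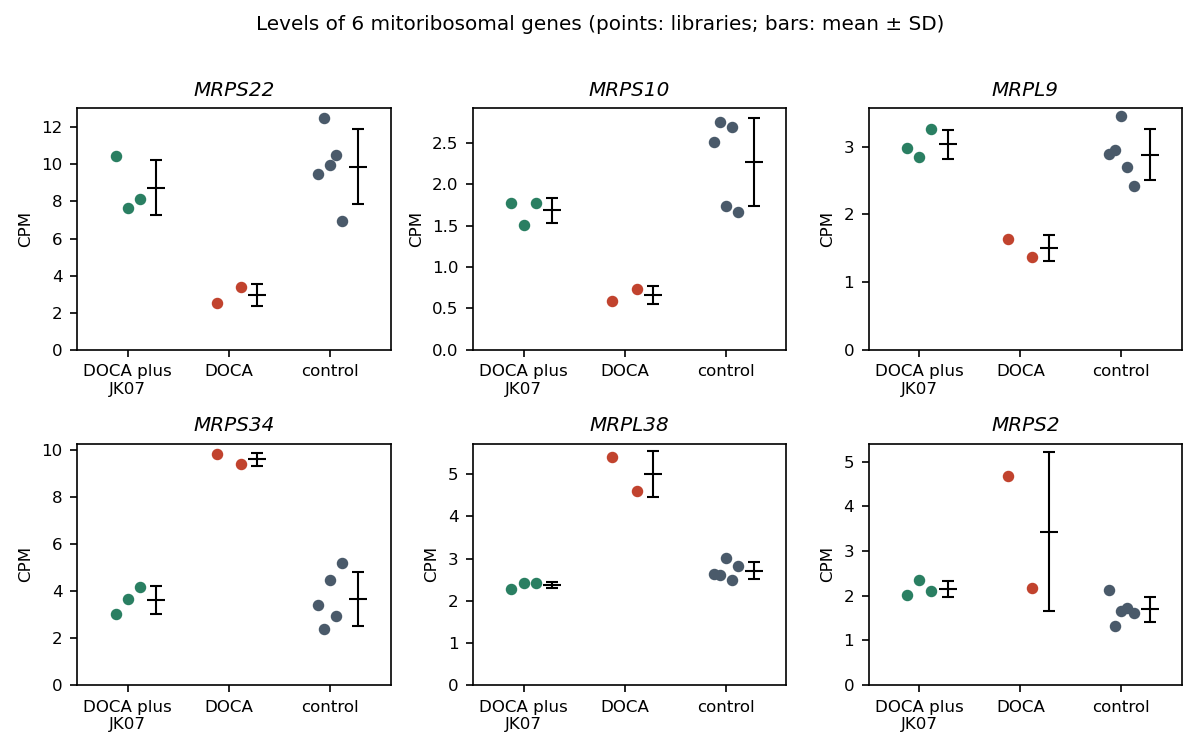
CPM of 6 members (y axes start at 0) in DOCA plus JK07, DOCA and control libraries; points are libraries, and the bar beside them is the mean ± SD. In the upper row the 2 DOCA libraries lie below all others; in the lower row they lie above, with MRPS2 high in 1 DOCA library only.

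The 3 members that were higher in DOCA have gene spans of 1986 to 7250 bp, against a median of 7336 bp in the large and 14450 bp in the small subunit. MRPS34, a small-subunit protein needed for that subunit's stability (chr3:40193033-40195018, plus strand), had 3.02, 3.67 and 4.19 CPM with DOCA plus JK07, 9.83 and 9.43 CPM with DOCA, and 3.39, 2.39, 4.49, 2.94 and 5.19 CPM in controls. Both DOCA libraries were above every other library. MRPS34 rose in DOCA (log2 fold change 1.39, SE 0.29, adjusted p = 0.00759) and was lower in DOCA plus JK07 than in DOCA (-1.41, SE 0.33, adjusted p = 0.0165; 0.0527 without library 8). It overlaps EME2 on the other strand.

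MRPL38, a large-subunit protein of the central protuberance (chr12:5514415-5521664, plus strand), had 2.29, 2.41 and 2.42 CPM with DOCA plus JK07, 5.40 and 4.62 CPM with DOCA, and 2.63, 2.61, 3.01, 2.49 and 2.82 CPM in controls. It overlaps no other annotated gene, and the 3 groups did not overlap with each other. MRPL38 rose in DOCA (log2 fold change 0.89, SE 0.19, adjusted p = 0.00818) and was lower in DOCA plus JK07 than in DOCA (-1.08, SE 0.21, adjusted p = 0.00602), and both calls held without any single library. With only the 2 groups in the fit, the second did not pass (adjusted p = 0.0618). MRPS2, a core small-subunit protein, had 2.01, 2.35 and 2.10 CPM with DOCA plus JK07, 4.68 and 2.17 CPM with DOCA, and 2.13, 1.33, 1.65, 1.73 and 1.61 CPM in controls. Its log2 fold change in DOCA was 1.02 (SE 0.32, adjusted p = 0.0459) with all libraries and 0.36 (adjusted p = 0.464) without library 6. On the log2(TPM + 1) scale none of the 3 genes passed in limma, with log2 differences of 0.72 for MRPS34 and 0.26 for both MRPL38 and MRPS2.

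Among the genes listed at 0 in both DOCA libraries were 15 members, 10 of the large and 5 of the small subunit, or 22.1%, against 27.2% of all genes tested. MRPL10, which anchors the stalk, MRPL13, MRPL19, MRPL35, MRPL48 and MRPL52 of the large subunit and MRPS14, MRPS23, MRPS28, MRPS33 and MRPS36 passed the test. MRPL22, MRPL34, MRPL36 and MRPL50 did not. MRPS36 is also known as KGD4, a subunit of the 2-oxoglutarate dehydrogenase complex, so its place in the ribosome is in doubt. The calls of MRPL19 and MRPS23 were each lost with 9 of the 10 libraries left out in turn.

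Of these 15, MRPL35 alone had all 5 controls above the coverage minimum of both DOCA libraries. MRPL35, a large-subunit protein (chr3:58560680-58575081, minus strand), had 1.56, 0.976 and 2.37 CPM with DOCA plus JK07, 0 and 0 with DOCA, and 1.37, 2.60, 1.92, 1.93 and 1.29 CPM in controls. The minimum for this gene was 0.958 CPM in library 6 and 1.25 CPM in library 7. Setting the DOCA libraries at the minimum gave a log2 ratio of -0.72 to the control mean for MRPL35, and between -0.53 and 1.96 for the other 14, of which 8 lay below 0. MRPS14 had 3.24, 1.78 and 2.79 CPM with DOCA plus JK07, 0 and 0 with DOCA, and 1.55, 4.23, 2.43, 3.66 and 2.45 CPM in controls, while the minimum was 2.28 CPM in library 6 and 2.98 CPM in library 7. For MRPS14, 3 controls therefore lay under the level that library 7 could list.

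The count of members at 0 followed the library. Among DOCA plus JK07 libraries 2 members were at 0 in each, in DOCA library 6 it was 18, in DOCA library 7 it was 23, and in controls 0 to 3. The members were set beside all 12255 genes whose mean count lay between the lowest and the highest member. These genes were not matched to the members within that range, so the 2 shares do not compare genes of equal count. Of them 4.91% to 13.6% were at 0 in DOCA plus JK07 libraries, 37.9% and 42.6% in DOCA libraries 6 and 7, and 3.79% to 12.9% in controls. Of the members 26.5% and 33.8% were at 0 in DOCA libraries 6 and 7. The 2 DOCA libraries differed most in the small subunit, with 5 members at 0 in library 6 and 10 in library 7. MRPS30, with 5.07 CPM in library 6 and 0 in library 7, was the most abundant member to show this.

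**Figure D3:**
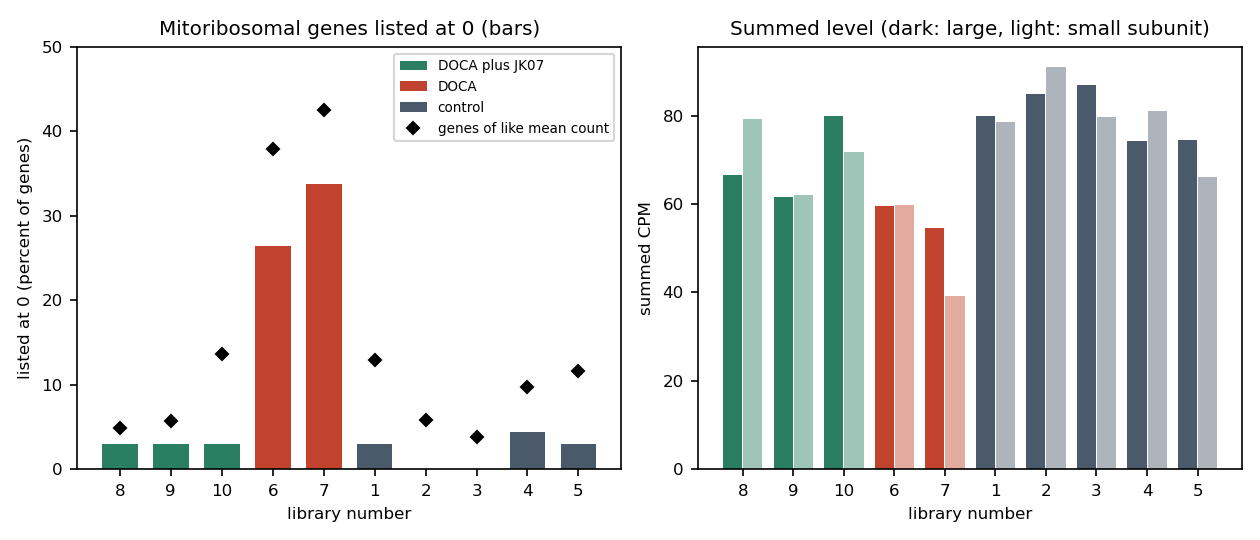
Left, percent of the 68 members listed at 0 (bars) and of all genes with a mean count within the members' range (diamonds) in each library. Right, summed CPM of the large (dark) and small (light) subunit. The DOCA libraries 6 and 7 have the most zeros in both sets of genes and the lowest sums of the large subunit.

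Summed over members, the large subunit reached 66.5, 61.5 and 79.8 CPM with DOCA plus JK07, 59.5 and 54.6 CPM with DOCA, and 79.8, 84.8, 87.0, 74.2 and 74.5 CPM in controls. The small subunit reached 79.3, 61.9 and 71.7 CPM with DOCA plus JK07, 59.8 and 39.3 CPM with DOCA, and 78.5, 91.0, 79.6, 81.1 and 66.2 CPM in controls. DOCA libraries were the lowest for both subunits. The ratio of large to small was 0.982 ± 0.138 (SD, n = 3) with DOCA plus JK07, 1.19 ± 0.279 (n = 2) with DOCA and 1.02 ± 0.0938 (n = 5) in controls, so the ranges of the 3 groups overlapped. The members' share was also taken of the counts outside both the ribosomal RNA scaffolds and the mitochondrial genome. It was 0.0819% to 0.101% with DOCA plus JK07, 0.0678% and 0.0851% with DOCA, and 0.104% to 0.1195% in controls.

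**Figure D4:**
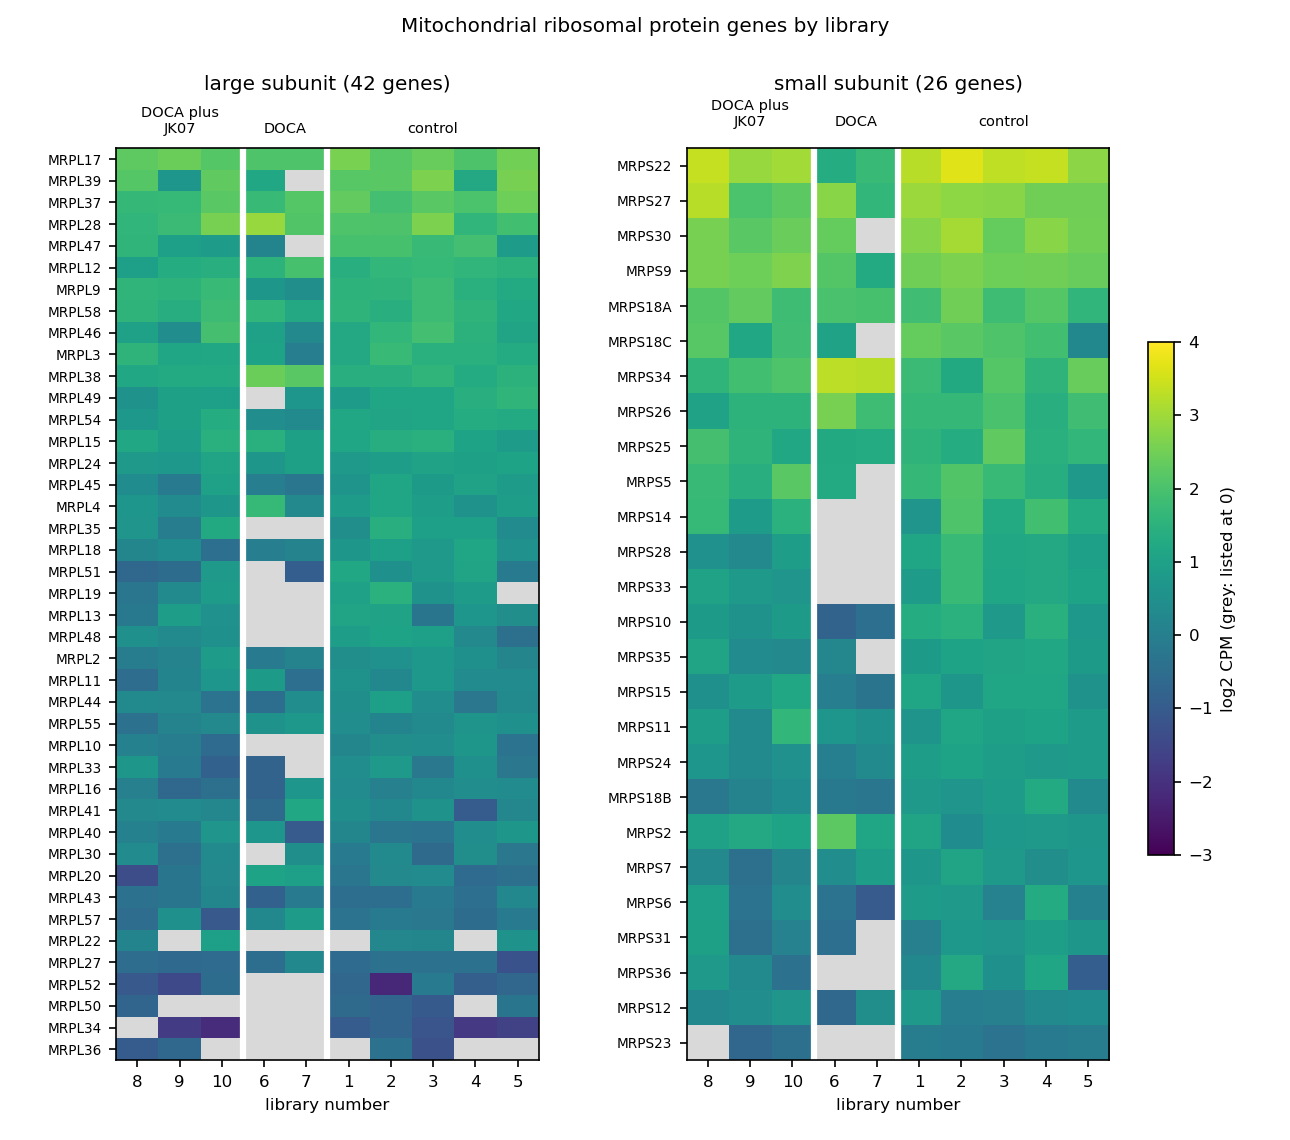
log2 CPM of each member (rows, ordered by control mean) in each library (columns: DOCA plus JK07 8 to 10, DOCA 6 and 7, control 1 to 5); grey marks a value of 0. The grey cells gather in the DOCA columns, where 15 rows are grey in both libraries.

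The disease-linked members and those at functional centres that were above 0 did not all go with the lower genes. MRPL3, next to the peptidyl transferase centre, had 2.94, 2.17 and 2.30 CPM with DOCA plus JK07, 2.07 and 1.00 CPM with DOCA, and 2.33, 3.32, 2.74, 2.74 and 2.48 CPM in controls, and did not pass (-0.82, adjusted p = 0.113). Library 7 was the low one, and without library 6 the difference passed (-1.44, adjusted p = 0.0123). For MRPL44 the DOCA difference was -0.41 (adjusted p = 0.548), for the decoding-site protein MRPS12 -0.33 (adjusted p = 0.603), for MRPS7 -0.06 (adjusted p = 0.915), and for MRPL11 at the stalk base -0.15 (adjusted p = 0.843). MRPL12 had 0.20 (adjusted p = 0.541), and MRPL58, a peptidyl-tRNA hydrolase built into the large subunit, -0.09 (adjusted p = 0.834). MRPS18A among the MRPS symbols and MRPL15 among the MRPL symbols were closest to no difference, at -0.04 (SE 0.27) and 0.05 (SE 0.28). Of the members above 0 in every library, MRPL20 had the widest large-subunit difference, with 0.394, 0.831 and 1.22 CPM with DOCA plus JK07, 2.10 and 1.94 CPM with DOCA and 0.963 ± 0.288 CPM in controls, but it did not pass (1.07, SE 0.50, adjusted p = 0.160).

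Members with longer gene spans had lower log2 fold changes in DOCA against control. Spearman's rho between span and log2 fold change in DOCA against control was -0.44 over the 68 members, -0.37 in the large subunit, -0.49 in the small subunit, and -0.56 over the 42 members above 0 in every library. Over all 17251 genes it was -0.03. These are descriptions across genes that share libraries and depth, and genes are not independent replicates. Apart from the 42, the sets and the span classes below include genes listed at 0 in both DOCA libraries, whose folds are not read as sizes. Among the 23 members with the shortest spans (744 to 5290 bp) 1 was lower and 2 were higher in DOCA, with a median log2 fold change of -0.09. The 22 with middle spans (5578 to 14534 bp) had 7 lower and 1 higher, with a median of -1.07, and the 23 with the longest (14632 to 250978 bp) 7 lower and 0 higher, with a median of -1.33. Of all genes in the same 3 classes 12.5%, 15.4% and 25.0% were lower and 2.69%, 7.30% and 6.54% higher, so the share of lower calls was also greatest among long genes at large. All genes in these classes had medians of -0.83, -0.42 and -0.66, the lowest being that of the short class. Mean CPM of the members over all 10 libraries also went with span (rho 0.33, against 0.48 over all genes), and the part of level in the relation was not tested. In DOCA plus JK07 against control, rho with span over the members was 0.04.

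**Figure D5:**
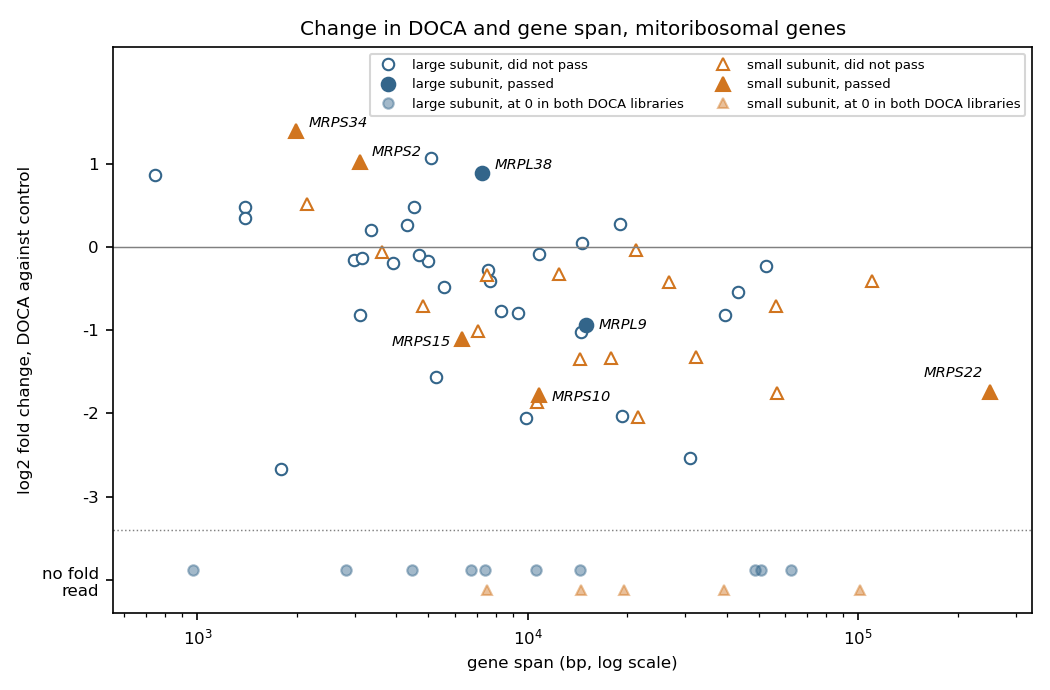
Log2 fold change in DOCA against control (y axis) against the annotated gene span (x axis, log scale) for each member; full-colour symbols passed the test. The bottom strip (pale symbols) holds the 15 members at 0 in both DOCA libraries, for which no fold is read; the higher members stand to the left, among the shorter genes.

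With JK07 added to DOCA, 12 members were higher and 2 lower than with DOCA alone, while 54 did not pass. Over all genes 14.7% were higher and 2.25% lower. All 3 DOCA plus JK07 libraries lay above both DOCA libraries in 25 members (36.8%), against 30.3% of all genes, and below them in 8 (11.8%), against 9.82%. In the large subunit 6 of 42 (14.3%) were higher and 1, MRPL38, was lower, and the median log2 fold change was 0.44, against 0.55 over all genes. In the small subunit 6 of 26 (23.1%) were higher and 1, MRPS34, was lower, with a median of 1.03. Of the 12 higher genes 9 were at 0 in both DOCA libraries, and MRPL9, MRPS10 and MRPS22, given above, were the others. With zeros set at the minimum none of the 9 passed, and with quality weights none of the 68 did. All 14 genes had also passed in DOCA against control, in the opposite direction, but both comparisons share the DOCA libraries, so a value particular to those libraries enters both. Without library 6 the counts were 10 higher in the large and 11 higher in the small subunit, and the share of all genes that were higher was 20.8%.

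The 2 largest non-passing differences among members above 0 in every library were MRPL20 at -1.31 (SE 0.56, adjusted p = 0.153) and MRPS6 at 1.07 (SE 0.57, adjusted p = 0.247). MRPS9 of the small subunit had 5.93, 5.45 and 6.27 CPM with DOCA plus JK07, 4.40 and 2.41 CPM with DOCA, and 5.62, 6.17, 5.44, 5.61 and 5.16 CPM in controls. The DOCA libraries lay below the others, yet MRPS9 did not pass in DOCA plus JK07 against DOCA (0.79, adjusted p = 0.0679) or in DOCA against control (-0.72, adjusted p = 0.0602), and it passed in both without library 6. MRPL18 and MRPL24 differed least in the large subunit, at 0.03 (SE 0.39) and 0.02 (SE 0.29).

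The comparison of DOCA plus JK07 with control cardiomyocytes draws its fold changes from no DOCA-only library. No member passed there, in either direction, with edgeR, and the background was 0% of all genes in both directions. The summed cardiomyocyte markers, 4632 to 7454 CPM with DOCA plus JK07 and 3725 to 4471 CPM in controls, did not overlap in this comparison. Of the single markers TNNT2, MYH6 and MYH7 did overlap. The part of the markers in the values of this comparison was not tested. At an unadjusted p under 0.05 stood 1 member, MRPL18, against 803 of all genes. Over the alternatives it was 0 to 8 members, 6 with DESeq2 (against 1269 of all genes) and 8 with quality weights (against 1545). At an adjusted p under 0.05 DESeq2 called none of the members, against 0.371% of all genes lower and 0.296% higher. Small differences nonetheless ran mostly one way. The log2 fold change was below 0 in 33 of 42 large-subunit and 20 of 26 small-subunit genes, or 77.9% of members, against 50.1% of all genes. The medians were -0.21 in the large and -0.22 in the small subunit, and -0.00 over all genes. Relative to the median of all genes, both subunits stayed below under each of 22 alternatives, between -0.40 and -0.10 in the large and between -0.36 and -0.05 in the small subunit. On the TPM scales the members' own medians were near 0 (0.02 and 0.01 for the large subunit) while those of all genes were 0.19 and 0.11.

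In 8 members (11.8%) all 3 DOCA plus JK07 libraries were below all 5 controls, against 2.45% of all genes tested, and in 0 were they above, against 3.37%. These were MRPL12, MRPL16, MRPL18, MRPL38, MRPS7, MRPS23, MRPS24 and MRPS28. MRPL18, a large-subunit protein, had 1.17, 1.31 and 0.734 CPM with DOCA plus JK07, 0.998 and 1.10 CPM with DOCA, and 1.63, 1.95, 1.73, 2.21 and 1.46 CPM in controls. Its log2 fold change in DOCA plus JK07 against control was -0.74 (SE 0.32, unadjusted p = 0.0454, adjusted p = 1). MRPS7, whose variants cause mitochondrial disease in humans, had 1.22, 0.747 and 1.13 CPM with DOCA plus JK07, 1.36 and 1.87 CPM with DOCA, and 1.62, 2.15, 1.69, 1.39 and 1.60 CPM in controls (-0.71, SE 0.32, adjusted p = 1). For MRPL18 the DOCA libraries were as low as those with JK07, whereas for MRPS7 library 7 lay among the controls. MRPL12 had 1.93, 2.52 and 2.62 CPM with DOCA plus JK07, 2.89 and 3.91 CPM with DOCA, and 2.63, 3.08, 3.22, 3.02 and 2.80 CPM in controls (-0.32, adjusted p = 1). Cytosolic ribosomal protein genes, which form the ribosome outside mitochondria, had a median of -0.42 in the same comparison, with 64 of 67 below 0 and 0 that passed.

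Genes that serve the mitochondrial ribosome were counted in the same fits, where 19.7% of all genes were lower and 5.73% higher in DOCA than in controls. Of 5 mitoribosomal proteins with other symbols 1 was lower in DOCA than in controls and 0 were higher. This was CHCHD1, at 0 in both DOCA libraries. Of 12 translation factors 4 (33.3%) were lower and 0 higher. MTIF2, the initiation factor that brings the first tRNA, had 8.53, 5.94 and 7.16 CPM with DOCA plus JK07, 3.74 and 3.85 CPM with DOCA, and 7.33, 8.08, 7.20, 8.49 and 7.28 CPM in controls. It fell in DOCA (log2 fold change -1.02, adjusted p = 0.00388) and was higher with DOCA plus JK07 than with DOCA (0.93, adjusted p = 0.0111). The other 3, GFM1, MTRF1 and MRRF, were at 0 in both DOCA libraries.

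Of 23 tested genes of mitoribosome assembly and rRNA modification 6 (26.1%) were lower and 3 (13.0%) higher in DOCA, with a median of -0.05. The higher ones were DHX30 (0.79, adjusted p = 0.00392), MTERF4 (0.91, adjusted p = 0.00183) and MTG2 (0.81, adjusted p = 0.0238), all known to act in assembly of the ribosome. MTERF4 had 4.31, 4.63 and 4.92 CPM with DOCA plus JK07, 8.42 and 8.20 CPM with DOCA, and 4.26, 4.15, 4.62, 4.35 and 4.66 CPM in controls, so that only the DOCA libraries stood apart. MTERF3 and OXA1L were lower and above 0, and METTL15, FASTKD2, GTPBP10 and TRMT61B were at 0 in both DOCA libraries.

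Of 19 mitochondrial aminoacyl-tRNA synthetases and related enzymes 5 (26.3%) were lower and 2 (10.5%) higher in DOCA. Of 12 genes of mitochondrial transcription and mRNA upkeep 5 (41.7%) were lower and 1 (8.33%) was higher. The higher one was POLRMT, the mitochondrial RNA polymerase (1.34, adjusted p = 0.0062), with 6.25, 8.13 and 9.06 CPM with DOCA plus JK07, 19.96 and 10.4 CPM with DOCA and 6.01 ± 1.09 CPM in controls. LRPPRC, which stabilizes mitochondrial mRNAs, had 9.64, 7.04 and 8.16 CPM with DOCA plus JK07, 4.81 and 3.11 CPM with DOCA, and 14.7, 13.3, 10.3, 11.98 and 10.3 CPM in controls, and fell in DOCA (-1.61, adjusted p = 0.00145). The 13 protein genes encoded in mitochondrial DNA were all lower in DOCA, with a median of -2.93, and all higher with DOCA plus JK07 than with DOCA, with a median of 3.51. Mitochondrial DNA is transcribed inside the mitochondrion, while the libraries are of nuclear RNA. These medians therefore describe mitochondrial RNA found in nuclear preparations, and how it came to be there was not tested. Of 67 cytosolic ribosomal protein genes 39 (58.2%) were lower and 0 higher in DOCA, with a median of -1.03. For DOCA plus JK07 against DOCA the counts of higher and lower genes were 1 and 0 of the other mitoribosomal proteins, 4 and 0 of the translation factors, 4 and 2 of the assembly genes, 5 and 0 of the synthetases, 5 and 0 of the transcription and upkeep genes, and 13 and 0 of the cytosolic ribosomal protein genes, against 14.7% and 2.25% of all genes.

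In the genome the members are scattered over 18 chromosomes and scaffolds, with 8 each on chromosomes 3 and 12. A neighbour on the other strand started within 1000 bp, head to head, in 18 of 68 members (26.5%), against 13.1% of named genes tested. One such pair consists of 2 members. MRPS11 of the small subunit (chr1:191309198-191321648, minus strand) and MRPL46 of the large subunit (chr1:191321999-191331319, plus strand) start 351 bp apart. MRPS11 had 1.88, 1.26 and 3.12 CPM with DOCA plus JK07, 1.61 and 1.44 CPM with DOCA, and 1.54, 2.17, 1.98, 2.07 and 1.81 CPM in controls. MRPL46 had 2.02, 1.35 and 3.80 CPM with DOCA plus JK07, 2.02 and 1.24 CPM with DOCA, and 2.32, 3.08, 3.74, 2.82 and 2.13 CPM in controls. In both genes library 10 was the highest and library 9 the lowest of the DOCA plus JK07 group, and neither passed in any comparison. The spans of 23 members overlap another gene, 21 of them on the other strand, so their counts are uncertain where strand was not used.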

How the data were processed

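Nuclear RNA of sorted minipig cardiomyocytes had been sequenced in 10 libraries after TRIzol extraction, with a TruSeq RNA kit, per the labels' protocols. The submitters' processing notes name SAMtools, StringTie, edgeR and the build Sscrofa11.1, with no versions and no aligner. Per the file headers, each library's table gives a coverage signal, FPKM and TPM for each gene. Estimated counts, whole numbers as deposited, come in 1 further table that has no gene column. Its lines were read in sorted identifier order, which put 99.9983% of values at 0 in both tables or in neither, against 62.6% after a shift of 1 line. The count and coverage profiles of the members correlated with a median r of 0.995. The deposited FPKM values were not used.

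Counts were tested with edgeR 4.0.16 (R 4.3.3) by quasi-likelihood F tests, with TMM scaling, filterByExpr and group as the term, in 1 fit of all 10 libraries, and adjusted by Benjamini-Hochberg over 17251 genes at 0.05. CPM are TMM-scaled and keep ribosomal RNA in the library total. Each SE was obtained from the fold change and its F value. The procedure was tested on simulated data. Alternatives used DESeq2 1.42.0, limma 3.58.1 on log2(TPM + 1) and log2(TPM + 0.1), other scalings, filters, thinning, quality weights, counts rebuilt from coverage, and each library left out.

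The members and gene lists were chosen with earlier results of these data known. Genes were named by fixed rules: passing members above 0 in every library, the widest and narrowest differences, members opposite to the majority or at 0 in a group, the extremes of control TPM, and members of known role; MRPS30, MRPS9, MRPS15, MRPL35, MRPS11 and MRPL46 or the values given for them were also chosen for what they show. Genes of most similar profile are not given, since the libraries form separate clusters. Coordinates are those of the files.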

Additional observations from a re-analysis of the deposited data

Results flagged for a closer look

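One value of 47 tested stood apart from its group: MRPL27, a large-subunit gene, had 0.426 CPM in control library 5, against 0.684 to 0.784 CPM in the other 4 controls. The gap to the nearest control was 0.721 of the group's range, above the 95% critical value of 0.71 for 5 samples. About 1 in 20 groups passes that limit by chance. MRPL27 passed in none of the 3 comparisons.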

How the results depend on the processing

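No paired analysis was possible because the labels give each library its own number and no number is shared between groups. In DOCA against control the large subunit had 7 lower members in the main test, 12 with DESeq2, 17 and 16 with limma on log2(TPM + 0.1) and log2(TPM + 1), and 0 with quality weights per library. The small subunit had 8, against 16 and 16 on the TPM scales and 0 with quality weights. Of all genes 19.7% were lower in the main test, 26.8% with DESeq2, 32.9% and 28.6% on the TPM scales and 0.545% with quality weights. In DOCA plus JK07 against DOCA the large subunit had 6 higher members, against 14 and 12 on the TPM scales, 0 with quality weights and 1 with zeros at the coverage minimum. The small subunit had 6, against 14, 14, 0 and 3. Of all genes 14.7% were higher in the main test, against 35%, 32.1%, 0.0058% and 10.2% under the same settings. With quality weights 11 of the 68 members in DOCA against control had an unadjusted p under 0.05, against 3819 of all 17251 genes. At an adjusted p under 0.05, 94 of all genes were lower and 67 higher with quality weights, against 3403 and 988 in the main test. On log2(TPM + 0.1) and log2(TPM + 1), 5681 and 4933 of all genes were lower and 221 and 258 higher. Over all genes, upper quartile scaling gave 2868 lower and 1523 higher and moved the median to -0.39. With zeros at the minimum it was 2705 lower and 2274 higher, with the median at 0.00. Leaving out 1 library at a time gave 6 to 10 lower large-subunit and 6 to 12 lower small-subunit members in DOCA against control, 5 to 10 and 5 to 11 higher members in DOCA plus JK07 against DOCA, and 0 in DOCA plus JK07 against control. The highest of these counts came without library 6, a fit with 1 DOCA library. With both DOCA libraries kept, 6 to 7 large-subunit and 6 to 7 small-subunit members were lower in DOCA against control. Of all genes 14.8% to 17.5% were then lower, against 19.7% in the main test. In DOCA plus JK07 against DOCA, 5 to 7 large-subunit and 5 to 6 small-subunit members were then higher, against 12.3% to 14.4% of all genes. Among values that passed in at least 1 of the 2 settings compared, 5 changed sign, all with zeros at the minimum. These were MRPL22 in DOCA against control (0.87), and in DOCA plus JK07 against DOCA MRPL10 (-0.27), MRPL13 (-0.14), MRPS28 (-0.50) and MRPS33 (-0.0423). The setting itself raises values at 0 in the DOCA libraries. Of 2129 values that passed in neither setting, 171 changed sign. The depth of library 7, where a coverage of 1 equals 0.613 TPM, limits what can be said of members listed at 0.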
